A study of Mus musculus with 186 samples.

Results

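The 46 genes described here act in the cell cycle and were given as a named list, of 55421 genes in the deposited table. The first 23 names, Mcm2 to Chaf1b, act at the G1/S transition and in DNA replication, and the other 23, Ccnb1 to Hmmr, act in G2 and mitosis. All 46 were found in the table by symbol. Their RNA was measured in 169 single inner cells of CD-1 mouse embryos, which fall into 7 groups. Freshly recovered cells came from embryos at E3.25 (19 cells), E3.75 (22 cells) and E4.0 (14 cells), where E stands for days of development. The other groups came from E2.75 morulae cultured in KSOM medium with the vehicle DMSO or with 10 µM LY. LY is LY294002, an inhibitor of phosphoinositide 3-kinase (PI3K), a lipid kinase that acts upstream of AKT. After 16 hours there were 31 DMSO and 31 LY cells, and after 24 hours 28 DMSO and 24 LY cells. All embryos lost the zona pellucida and passed through immunosurgery, in which outer cells are lysed, so what remained of outer cells was measured from their markers. PI3K activity itself was not measured here.

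Cells commit to division in G1, when cyclin E with its kinase partner lets them enter S phase. The MCM2 to MCM7 proteins form the ring that unwinds DNA, and CDC6 and CDT1 load it on chromatin while CDC45 and the GINS complex turn it on. Cyclin B with CDK1 then drives mitosis, Aurora and Polo kinases build the spindle, and the anaphase-promoting complex with CDC20 and UBE2C ends it. RNA of the first genes is typically highest in G1 and S, and RNA of the second in G2 and mitosis. Cells of the early mouse embryo divide rapidly, and inner cells at these stages are separating into epiblast, the later embryo proper, and primitive endoderm, a layer of the later yolk sac.

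Values are TPM, transcript abundance scaled to a fixed total per cell. The replicate was the experiment, that is the cells of 1 group with 1 date label, numbered in date order. Fresh stages had 2 experiments each and culture groups 3. A level below is the mean over the cells of an experiment of log2(TPM + 1), unless TPM is named, and a difference is a difference of such means. On that scale changes of low genes are understated, and fewer expressing cells cannot be told apart from less RNA per cell. Genes with a TPM of 1 or more (called detected) numbered 3806 to 10220 per cell, with a median of 6584. One experiment stood apart. The first 16-hour DMSO experiment held only 3 cells, had a mean of 9995 genes detected per cell against 4556 to 8303 in the other 17, and had the highest summed TPM of 10 trophectoderm (outer cell) markers, 1020.5 against 85.3 to 351. Set medians, score differences and named genes that change by over 1.5 times or turn without it are given both ways. The inner cell marker Pou5f1 was detected in 169 of 169 cells, and the trophectoderm markers Cdx2 and Elf5 in 18 and 2. Krt8 and Krt18, also outer cell markers, were detected in 159 and 138 cells. All 16-hour experiments have later date labels than the 24-hour and fresh ones, so culture time and date cannot be told apart.

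Short motifs in the promoters of the listed genes differed in frequency between the 2 sets, and a few matches are shown. In RefSeq promoter windows (GRCm38.p6, the patch release of mm10), 39 of the 46 genes were matched, 20 G1/S genes with 24 promoters and 19 G2/M genes with 19. For 34 of these 43 promoters the bases after the start were found in a transcript of the gene. The cell cycle homology region (CHR), searched as TTTGAA on both strands, is bound by the DREAM and MuvB complexes. It was in 68.4% of the G2/M promoters, 12.5% of the G1/S promoters and 17.9% of all 32851 promoters of the same length. E2F sites, searched as TTTCCCGC or TTTGGCGC on both strands, were in 29.2% of the G1/S promoters, 0% of the G2/M promoters and 1.56% of all. The CCAAT box was in 54.2%, 89.5% and 37.4%. None of these motifs contains another. The windows run 5′ to 3′ along the gene's strand, with the match in capitals.
Cdc6 (loads the helicase, E2F, chr11:98908002-98908031, plus strand): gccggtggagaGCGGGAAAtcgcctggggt
Mcm6 (helicase ring, E2F, chr1:128359734-128359763, minus strand): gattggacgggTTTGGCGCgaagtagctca
Rfc3 (loads the PCNA clamp, E2F, chr5:151651190-151651219, minus strand): ctttcgcgctcGCGGGAAAactctactgtc
Cdk1 (mitotic kinase, CHR, chr10:69352910-69352939, minus strand): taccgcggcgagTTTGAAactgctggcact
Cdc20 (starts anaphase, CHR, chr4:118437344-118437373, minus strand): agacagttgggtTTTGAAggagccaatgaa
Ube2c (ubiquitin conjugase of anaphase, CHR, chr2:164769888-164769917, plus strand): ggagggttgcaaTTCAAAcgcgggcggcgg
Plk1 (Polo kinase, CHR, chr7:122159453-122159482, plus strand): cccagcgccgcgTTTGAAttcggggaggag
Top2a (untangles chromosomes, CHR, chr11:99024195-99024224, minus strand): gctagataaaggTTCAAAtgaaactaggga
A match describes the letters only, and the genes with an E2F match were Cdc6, Cdt1, Mcm3, Mcm5, Mcm6, Mcm7 and Rfc3. Of the 8 genes shown, Rfc3 returns below with the smallest p under LY at 24 hours, and Cdc20 and Ube2c with values that were higher at E4.0.

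Most of the genes were expressed in most cells. The MCM ring gene Mcm5 and the ubiquitin conjugase Ube2c were detected in 169 of 169 cells. Of the 23 G1/S genes, 22 were each detected in at least 50% of cells and 14 in at least 90%, and of the 23 G2/M genes 18 and 10 were. A single cell held a median of 38 of the 46 genes, with a lowest of 21 and a highest of 46. Among the G1/S genes, median TPM over all cells was highest for Tyms (110), the thymidylate synthase that supplies dTTP, and lowest for the cyclin Ccne2 (0). Ccne2 was detected in 11 of 169 cells and did not pass the filter on low values, so 45 of the 46 genes were tested. Among the G2/M genes it was highest for Cks2 (363), a small CDK1 partner, and lowest for the spindle motor Kif11 (0.32), detected in 58 cells. Libraries start at the 3′ end, so these medians rank detection in this assay rather than transcripts per cell. Mki67, the gene of the proliferation antigen Ki-67, was detected in only 83 cells, while Cdk1 was detected in 158. Exons of 15 of the 46 genes overlap those of another gene, among them Cdc20 with Elovl1, Nusap1 with Oip5 and Cdc45 with Ufd1, and strandedness of the counting is not stated in the sources at hand. Pcna and Tyms have pseudogenes that could share reads with them.

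**Figure D1:**
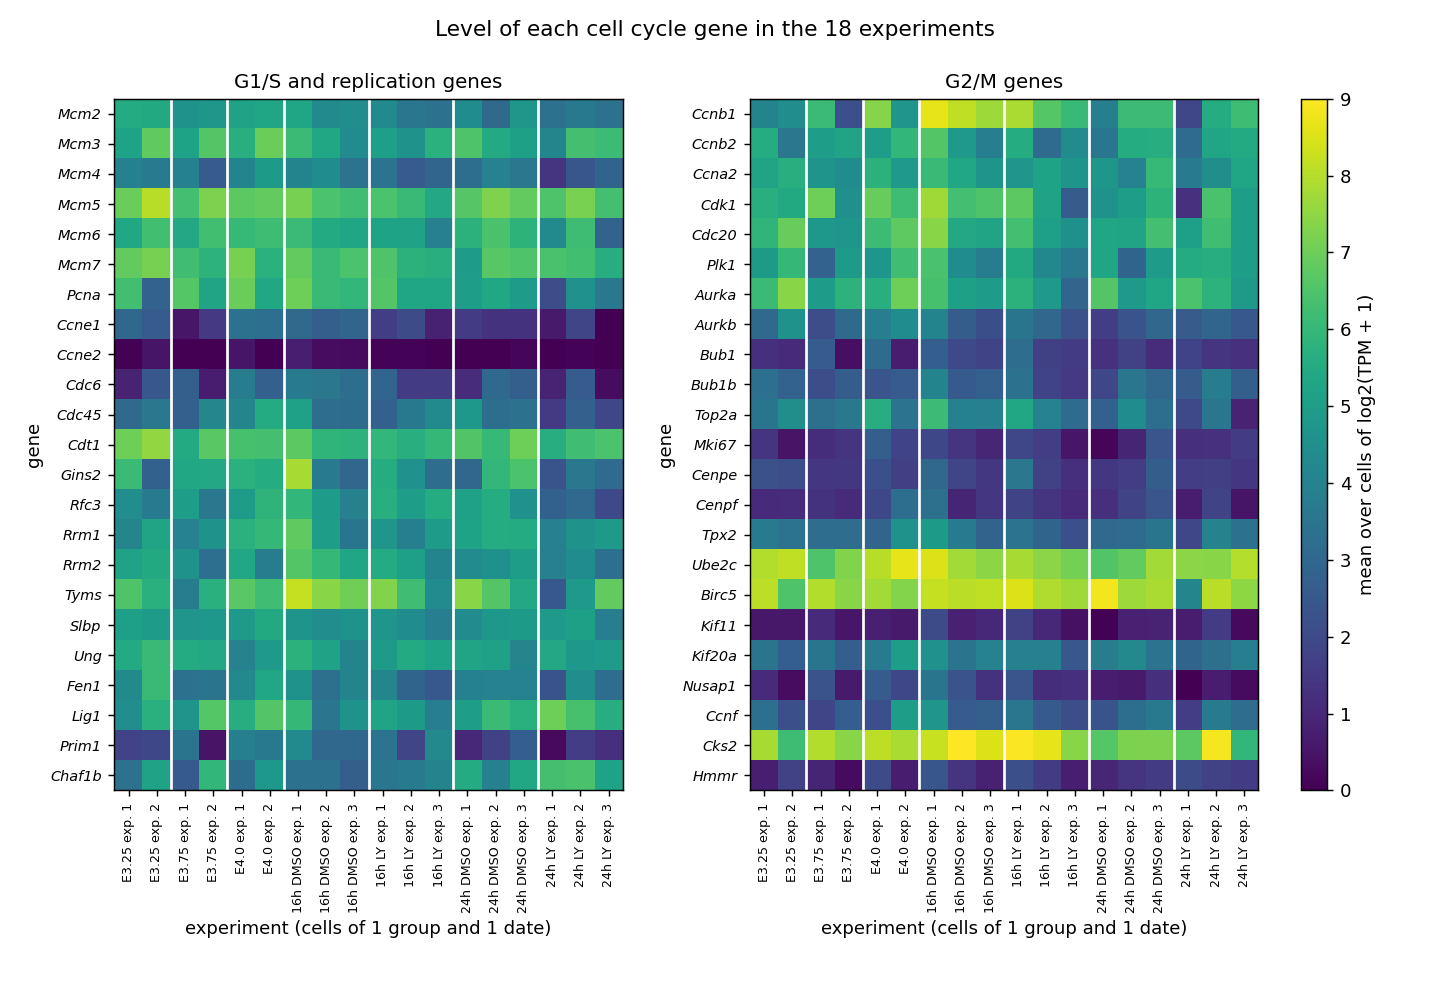
Mean log2(TPM + 1) of each of the 46 genes (rows) in the 18 experiments (columns, white lines between groups), G1/S and replication genes on the left and G2/M genes on the right. Ube2c and Cks2 are high throughout, Birc5 in all but the first 24h LY experiment (4.14), Ccne2 and Kif11 are low, and Ccne1 is visibly dark at E3.75, 24h DMSO and 24h LY.

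None of the 45 tested genes passed an adjusted p of 0.05 (limma, Benjamini-Hochberg over all 11680 genes tested) in any of 8 comparisons. The values below are therefore levels and differences, read against how often any gene met the same criterion. The same threshold called 0% of all genes for LY against DMSO at 16 hours and 0% at 24 hours, 0% for the difference between these effects and 0% for E3.75 against E3.25. It called 1.41% for E4.0 against E3.75, 1.67% for E4.0 against E3.25, 0.00856% for 24h against 16h DMSO and 0.0514% for 16h DMSO against E3.25. Where genes are counted at an unadjusted p under 0.05, the count is from the same model.

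Among the fresh stages, the mean score of both sets was highest at E4.0 and lowest at E3.75. The G1/S score, the mean log2(TPM + 1) over the 23 genes, was 4.56 and 4.78 in the 2 experiments at E3.25, 4.22 and 4.39 at E3.75, and 4.97 and 5.11 at E4.0. The G2/M score was 3.91 and 3.83, then 3.70 and 3.38, then 4.42 and 4.41. No fresh stage overlapped another in either score, which is a weak criterion with 2 experiments per stage. Of all single genes, 27.9% had every E4.0 experiment above every E3.75 one, and 8.27% had every one below. Genes detected per cell ran the same way between the last 2 stages, 6393 and 6078 at E3.25, 6371 and 6000 at E3.75, and 7236 and 7682 at E4.0, and their part in the scores was not tested. E4.0 exceeded E3.25 by 0.37 in G1/S score and 0.55 in G2/M score. Cells were sequenced in 2 runs. Of the 2 E4.0 experiments, the first run held 5 and 3 cells and the second 4 and 2. Within the first run these differences were 0.91 and 0.69, and within the second -0.094 and 0.46, so the G1/S difference was seen in 1 of the 2 runs. With log2 taken after averaging TPM they were -0.14 and 0.057. Of the 6 primitive endoderm markers, Gata4, Sox7 and Foxa2 passed at E4.0 against E3.25, beside 1.67% of all genes. Sox7 and Foxa2 were detected in only 13 and 14 of 169 cells. Of all 11680 genes 7086 were higher at E4.0, and of the 6 markers 5 were higher and 1 was lower. Their summed level overlapped between stages, at 81.3 to 111 TPM at E4.0, 26.4 to 108 at E3.75 and 28.1 to 114 at E3.25. Of 6 epiblast markers 4 were higher at E4.0 (median 0.60), and 0 passed. The part of both marker lists in the scores was not tested.

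**Figure D2:**
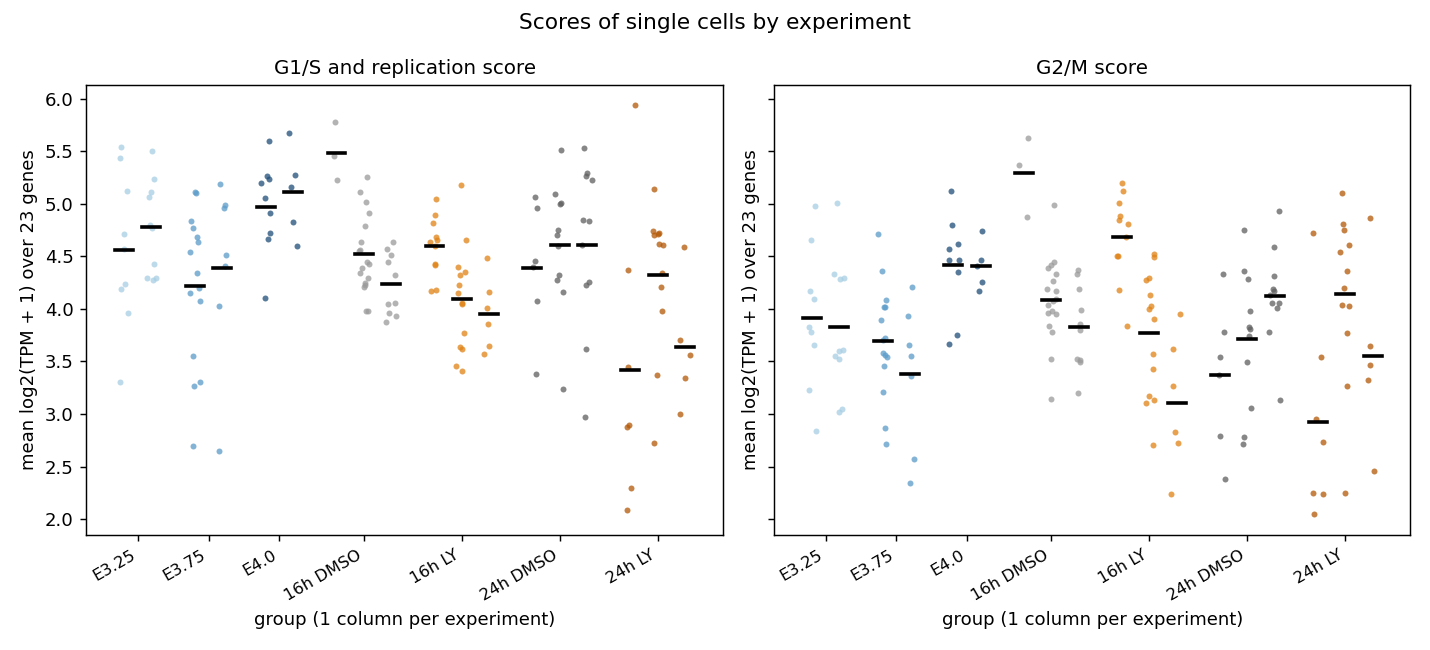
Score of each cell (points), the mean log2(TPM + 1) over the 23 genes of a set, with 1 column per experiment and a black line at the experiment mean. E4.0 experiments sit at 4.97 and 5.11 (G1/S) above the other fresh stages, and the first 24h LY experiment, at 3.42, has the lowest mean but cells spread from 2.09 to 5.94.

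Cyclin E1 showed the widest swing of the G1/S genes between fresh stages. Ccne1, which drives entry into S phase, was at 3.02 and 2.63 at E3.25, 0.53 and 1.51 at E3.75, and 3.38 and 3.29 at E4.0. Both E3.75 experiments lay below all 4 others, and how many of all genes did this was not counted. Ccne1 was detected in 5 of 22 cells at E3.75 against 11 of 19 at E3.25 and 12 of 14 at E4.0. E3.75 was lower than E3.25 by 1.80 (difference -1.80 ± 0.69 SE, limma adjusted p = 1), and E4.0 was higher than E3.75 by 2.32 ± 0.69 (limma adjusted p = 0.140). The second difference was between 1.79 and 4.13 over 15 alternatives, with adjusted p from 0.0951 to 0.839. These 2 comparisons share the E3.75 experiments.

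At E3.75 against E3.25, 2 G1/S genes and 0 G2/M genes had an unadjusted p under 0.05, where 4.59% of all genes did. The other G1/S gene was Fen1, the nuclease that trims Okazaki fragments, at 3.37 and 3.47 at E3.75 against 4.28 and 6.11 at E3.25 (difference -1.78 ± 0.83). Rrm2, the regulated subunit of ribonucleotide reductase, differed by -1.38 and the loading factor Cdt1 by -1.17. The G2/M genes with the smallest p were Cdc20 (-1.64), Ube2c (-1.14), Plk1 (-1.57) and the chromosome passenger kinase Aurkb (-1.21). Aurkb differed by 0.46 the other way within the second run. Of the tested genes, 14 of 22 G1/S and 13 of 23 G2/M genes were lower at E3.75, where 6524 of the 11680 genes were. The medians were -0.28 and -0.37 beside -0.09 for all genes.

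At E4.0 against E3.75, 20 of 22 G1/S genes and 21 of 23 G2/M genes were higher, where 7887 of the 11680 genes were. The medians were 0.50 and 0.82 beside 0.29 for all genes tested. At an unadjusted p under 0.05 there were Ccne1, Ube2c and Cdc20, where 9.49% of all genes passed. Ube2c stood at 8.05 and 8.68 at E4.0 against 6.54 and 7.29 at E3.75 (difference 1.45 ± 0.64, limma adjusted p = 0.456). Cdc20 stood at 6.16 and 6.77 against 4.81 and 4.71 (1.70 ± 0.82, adjusted p = 0.526). The E4.0 experiments of both genes lay above both E3.75 experiments. Aurkb (1.49) and the kinetochore gene Cenpf (1.39) came next, with the primase subunit Prim1 (1.81), the large reductase subunit Rrm1 (1.56) and Cdc6 (1.59) among the G1/S genes. Every E4.0 experiment was above every E3.75 experiment for 10 of 22 G1/S genes and 8 of 23 G2/M genes, where 27.9% of all genes did this. Only Ung, a DNA repair glycosylase, was below in the same sense among the 45, where 8.27% of all genes were. With the number of genes detected as a covariate the medians were 0.19 and 0.36, beside -0.02 for all genes. Within the first run they were 0.95 and 0.90, beside 0.44, and within the second 0.17 and 0.54, beside 0.02. In the second run 12 of 22 G1/S genes and 20 of 23 G2/M genes were above 0, where 5949 of the 11680 genes were. The count for the G1/S set thus rested mainly on the first run.

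Against E3.25, E4.0 differed less evenly. The unadjusted p was under 0.05 for 1 of the 45 genes, Nusap1, where it was for 12.9% of all genes. Nusap1, which bundles spindle microtubules, was at 2.60 and 1.95 at E4.0 and at 1.10 and 0.30 at E3.25, a difference of 1.57 ± 0.71 (limma adjusted p = 0.356). Within the second run Nusap1 differed by 3.15 and passed, with a limma adjusted p of 0.0333. That fit rested on 4 and 2 cells in the E4.0 experiments. In it 1806 of the 11680 genes had an unadjusted p under 0.05. Mki67 (1.37), Cenpf (1.49) and the cytokinesis motor Kif20a (1.31) were the next G2/M genes, and Prim1 (1.90), Cdc6 (1.64), Rfc3 (1.38) and Ung (-1.36) led the G1/S genes. Rfc3 was at -0.55 within the second run. Every E4.0 experiment lay above every E3.25 experiment for 7 of 22 G1/S and 8 of 23 G2/M genes, beside 26.4% of all genes. It lay below for Mcm2, Mcm5, Cdt1 and Ung in G1/S and Bub1b in G2/M, beside 15.2% of all genes. With genes detected as a covariate, the medians of 0.33 and 0.31 became -0.12 and -0.30 while that of all genes went from 0.20 to -0.10, so the direction of both sets at E4.0 against E3.25 depends on that scaling.

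**Figure D3:**
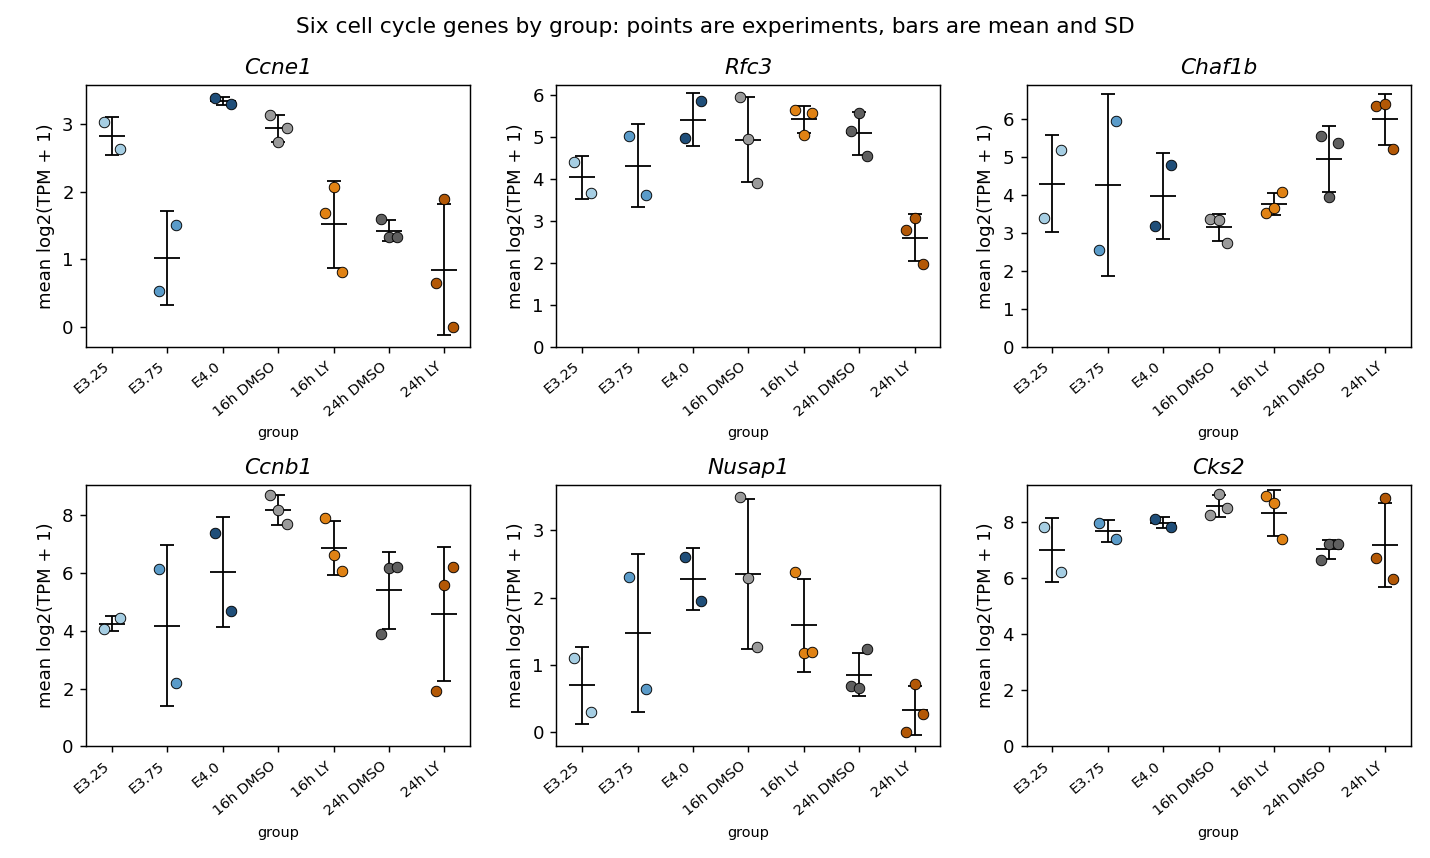
Level (mean log2(TPM + 1) of an experiment) of 6 genes in the 7 groups: points are experiments, with the group mean and SD (n = 2 or 3). Ccne1 is low at E3.75, in both LY groups and in 24h DMSO, and Rfc3 is lowest in 24h LY. Ccnb1 is high in 16h DMSO, and Cks2 is high in both 16h groups.

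In culture with DMSO alone, cyclin B1 and 2 other mitotic genes had higher levels at 16 than at 24 hours. Ccnb1, the activator of CDK1, was at 8.67, 8.15 and 7.67 in the 3 16-hour DMSO experiments. In 24h DMSO it was at 3.87, 6.15 and 6.18, and at E3.25 at 4.05 and 4.42. All 16-hour values lay above all of these, and the share of all genes for which this held was not counted. The 24-hour group differed from the 16-hour group by -2.77 ± 1.06 (limma adjusted p = 0.384), and the 16-hour group from E3.25 by 3.93 ± 1.18 (limma adjusted p = 0.214). Fitted on those 2 groups alone the latter passed, with an adjusted p of 0.0264. It was between 1.95 and 4.30 over 17 alternatives, with adjusted p up to 0.693. Nusap1 was at 3.501, 2.29 and 1.27 in 16h DMSO and at 0.68, 0.66 and 1.23 in 24h DMSO. Cks2 was at 8.25, 9.02 and 8.51 against 6.64, 7.23 and 7.24. Neither gene overlapped between the 2 culture times, with differences of -1.50 ± 0.58 and -1.56 ± 0.67. In the LY arms Ccnb1 was at 7.87, 6.62 and 6.05 at 16 hours and at 1.91, 5.58 and 6.19 at 24 hours. Cks2 there was at 8.95, 8.67 and 7.41, and then at 6.73, 8.86 and 5.96. Without the first 16-hour DMSO experiment the Nusap1 difference was -0.92 between culture times and 1.08 against E3.25, and those of Ccnb1 were -2.51 and 3.67. Other measures moved with culture time too. All 9 tested trophectoderm markers were lower at 24 hours (median -0.71), where 8145 of the 11680 genes were. In limma 4 of them, Cdx2, Gata3, Tspan8 and Ptges, had an unadjusted p under 0.05, where 10.9% of all genes did. The summed level of the 10 listed markers was 173 to 1020.5 TPM at 16 hours and 197 to 333 at 24 hours. The mitochondrially encoded share of TPM ran from 10.8% to 14.3% over the 16-hour experiments and from 1.55% to 9.17% over the 24-hour ones, with no overlap. The part of these measures in the differences was not tested.

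Among the G1/S genes the same comparison held 4 with an unadjusted p under 0.05, and 3 G2/M genes, where 10.9% of all genes passed. Ccne1 was at 3.12, 2.73 and 2.94 in 16h DMSO and at 1.60, 1.33 and 1.33 in 24h DMSO (difference -1.51 ± 0.57, limma adjusted p = 0.378), with no overlap. Rrm2 (-1.34) and Prim1 (-1.62) were also lower at 24 hours. Chaf1b, a subunit of the chromatin assembly factor that places histones behind the fork, was higher, at 5.55, 3.94 and 5.36 against 3.37, 3.34 and 2.73 (1.80 ± 0.78, limma adjusted p = 0.410). It was the only one of the 45 for which every 24-hour experiment was above every 16-hour one, where 2.16% of all genes were. The reverse held for 5 G1/S genes (Pcna, Ccne1, Cdc6, Rrm2 and Prim1) and 5 G2/M genes (Ccnb1, Cdk1, Bub1, Nusap1 and Cks2), beside 14.3% of all genes. The medians were -0.03 for G1/S genes and -0.46 for G2/M genes, beside -0.29 for all genes. With genes detected as a covariate they were 0.32 and 0.34, beside 0.10 for all genes. Without the first 16-hour date they were 0.24 and -0.03, beside -0.02, with 12 of 23 G2/M genes below 0 in place of 22. The score differences of -0.21 (G1/S) and -0.67 (G2/M) were 0.15 and -0.22 without the first 16-hour DMSO experiment. The named Kif11 difference, -0.72, was 0.049 with genes detected as a covariate and -0.33 without that experiment.

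The 16h DMSO cells, cultured from E2.75, were also set beside fresh E3.25 cells, and 13.7% of all genes had an unadjusted p under 0.05. Among the 45 genes Ccnb1, Nusap1 (1.65), Cks2 (1.58) and Cdc6 (1.85) did. Cdc6 was at 3.68, 3.58 and 3.26 in culture and at 0.89 and 2.44 at E3.25, and Pcna, the sliding clamp of the polymerases, was at 7.00, 6.08 and 5.97 against 6.28 and 2.84. Pcna thus overlapped and Cdc6 did not, and the share of all genes without overlap here was not counted. Prim1 differed by 1.56, and by -0.24 when log2 was taken after averaging. Cdt1 (-1.11) and Aurka (-1.29), the centrosome kinase, were lower in culture. The sets had medians of -0.03 (G1/S) and 0.53 (G2/M) beside 0.32 for all genes, and of -0.81 and -0.65 beside -0.15 with genes detected as a covariate. Without the first 16-hour date they were -0.45 and -0.08 beside 0.04, so the direction of the G2/M set turned there as well. Trophectoderm markers summed to 305 and 329 TPM at E3.25 and to 1020.5, 173 and 211 in 16h DMSO, and their part in these differences was not tested.

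After 16 hours with LY, both sets were lower than with DMSO on each of the 3 dates, and so were genes in general. The G1/S score was 4.595, 4.09 and 3.95 with LY against 5.49, 4.52 and 4.24 with DMSO, which gives -0.89, -0.43 and -0.28 by date. The G2/M score was 4.69, 3.77 and 3.10 against 5.29, 4.09 and 3.83, or -0.60, -0.32 and -0.72 by date. The ranges of the arms overlapped, since dates differed more than arms did. The mean differences were -0.53 and -0.55. Without the first DMSO experiment they were -0.17 and -0.10, and without that date in both arms -0.36 and -0.52. Genes detected per cell were also lower with LY on each date, with differences of -1692, -772 and -1294, and their part was not tested. The 9 tested trophectoderm markers were all lower with LY in the fit (median -0.80), where 8922 of the 11680 genes were. On all 3 dates 6 of them were lower, where 35.7% of all genes were. The summed level of the 10 markers was 143 to 259 TPM with LY against 173 to 1020.5 with DMSO, with Elf5 at 0 in every cell of both arms. Their part was not tested either.

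At this time 11 of 22 G1/S genes were lower with LY on all 3 dates, and 10 of 23 G2/M genes, where 35.7% of all genes were. The G1/S genes were Mcm2, Mcm4, Mcm5, Mcm6, Mcm7, Pcna, Ccne1, Cdc6, Rrm2, Tyms and Fen1, and the G2/M genes Ccnb1, Cdk1, Cdc20, Plk1, Aurka, Bub1b, Tpx2, Ube2c, Nusap1 and Ccnf. Only Chaf1b was higher on all 3 dates, where 5.34% of all genes were, and it stood at 3.53, 3.66 and 4.08 with LY against 3.37, 3.34 and 2.73. At an unadjusted p under 0.05 there was Ccne1 alone of the 45, where 5.49% of all genes passed. With the date as a block Cdc6 (p = 0.0413) and Cdk1 (p = 0.0302) joined it by the same limma test, where 1040 of the 11680 genes passed. Ccne1 was at 1.68, 2.07 and 0.81 with LY and at 3.12, 2.73 and 2.94 with DMSO (-1.41 ± 0.57, limma adjusted p = 0.854). The arms did not overlap, and the share of all genes without overlap was not counted. Ccne1 was detected in 18 of 31 LY against 25 of 31 DMSO cells. The difference was between -2.57 and -0.63 over 19 alternatives, with adjusted p of at least 0.492. Of the others, Cdc6 differed by -1.48, Tyms by -1.60 and Rrm2 by -1.08. The mitotic kinase Cdk1 was at 6.75, 5.19 and 2.63 with LY against 7.70, 6.31 and 6.52 (-1.99 ± 1.06), so the third date carried most of it. The spindle factor Tpx2 (-0.98), the checkpoint kinase Bub1b (-0.89) and Nusap1 (-0.76) followed. Without the first DMSO experiment these 3 were at -0.43, -0.42 and -0.19.

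The shift at 16 hours was shared with genes in general. The medians of -0.53 (G1/S) and -0.51 (G2/M) stood beside -0.33 for all 11680 genes. Without the first date they were -0.48 and -0.33 beside -0.23, and 13 of 22 G1/S genes were below 0 in place of 19. Quantile normalization moved that of all genes to 0.01 and those of the sets to -0.11 and -0.05. With genes detected as a covariate the G1/S median was -0.06 and the G2/M median was 0.22, so the direction of the G2/M set with LY at 16 hours depends on the scaling.

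**Figure D4:**
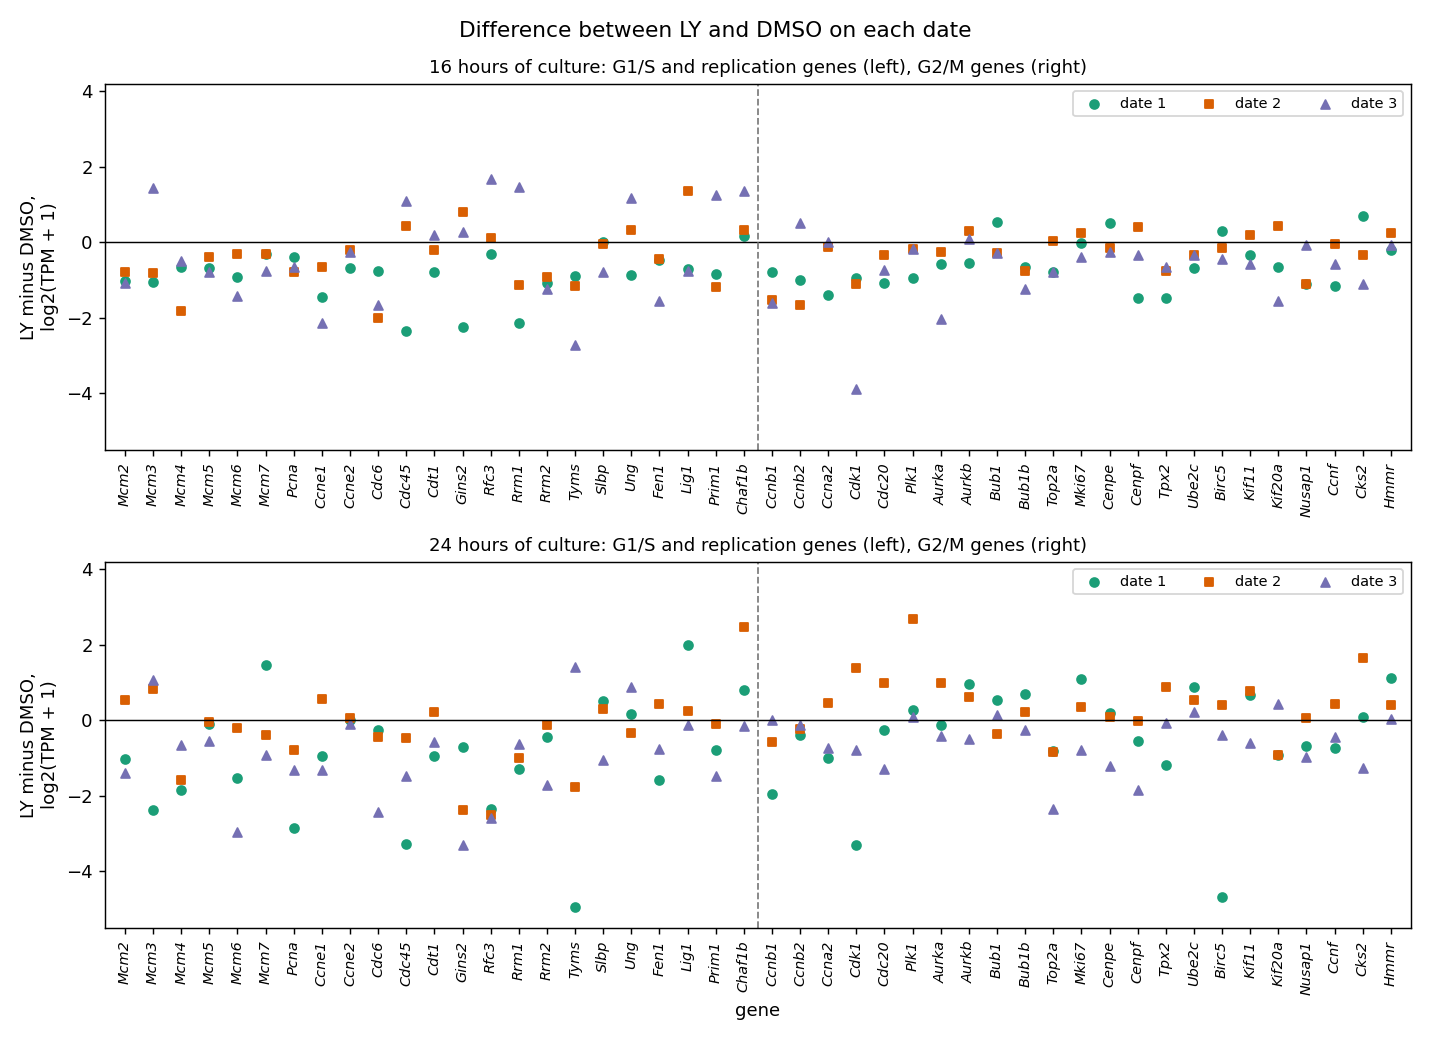
Difference between LY and DMSO in mean log2(TPM + 1) for each gene on each date at 16 hours (top) and 24 hours (bottom); points above 0 are higher with LY. At 24 hours the 3 points of Rfc3 lie together between -2.59 and -2.36, while Tyms runs from -4.94 to 1.41.

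After 24 hours with LY, the G1/S score was lower on each date and the G2/M score was mixed. In the fit 18 of 22 G1/S genes and 13 of 23 G2/M genes were lower, where 7854 of the 11680 genes were. The 4 G1/S genes that were higher were Chaf1b (1.04), Lig1 (0.71), Ung (0.24) and Mcm7 (0.05). The G1/S score was 3.42, 4.32 and 3.64 with LY against 4.39, 4.605 and 4.61 with DMSO, with no overlap, and differed by -0.97, -0.28 and -0.96 by date (mean -0.74). The G2/M score was 2.93, 4.14 and 3.55 against 3.37, 3.71 and 4.12, and differed by -0.44, 0.43 and -0.57 (mean -0.19). Without the first LY experiment, which had the fewest genes detected (4556 per cell), the means were -0.55 and 0.11. Genes detected were lower with LY on each date, with differences of -1170, -279 and -1595.5. Of 6 primitive endoderm markers 5 were lower with LY (median -0.55). Sox17 and Pdgfra were lower on all 3 dates, where 22.4% of all genes were. The summed level of the 6 was 18.3 to 48.5 TPM with LY and 31.6 to 47.6 with DMSO. Of 9 tested trophectoderm markers 6 were higher (median 0.16), while Krt18 differed by -2.21 ± 0.97 (limma adjusted p = 0.899), and their summed level was 210 to 351 TPM against 197 to 333. The part of these measures was not tested.

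The clamp loader subunit Rfc3 had the smallest unadjusted p of the 45 genes at 24 hours. It stood at 2.78, 3.06 and 1.97 with LY and at 5.14, 5.58 and 4.56 with DMSO, a difference of -2.49 ± 0.63 (unadjusted p = 0.000763, limma adjusted p = 0.899). Its differences by date, -2.36, -2.52 and -2.59, were nearly equal, and it was detected in 17 of 24 LY and 24 of 28 DMSO cells. The difference was between -3.18 and -1.84 over 19 alternatives, with adjusted p of at least 0.257. Across cells Rfc3 had the highest r with genes detected of the 45, 0.38. A fit with genes detected as a covariate was among the 19 alternatives. At 16 hours Rfc3 with LY was at 5.64, 5.05 and 5.58 against 5.94, 4.95 and 3.91 with DMSO, where the arms overlapped. The difference between the LY effects at 24 and 16 hours was -2.97 ± 0.89 for Rfc3 (unadjusted p = 0.00322, limma adjusted p = 1), and Rfc3 was the only one of the 45 under 0.05 there, where 2.49% of all genes were.

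Unadjusted p at 24 hours was under 0.05 for 4 of 22 G1/S and 0 of 23 G2/M genes, where it was for 5.27% of all genes. With the date as a block 6 and 1 did, by the same limma test, with Gins2 (p = 0.0170), Pcna (p = 0.0499) and Top2a (p = 0.0481) added, where 904 of the 11680 genes did. Besides Rfc3, the 4 without the block were the helicase activator Cdc45 and the ring genes Mcm4 and Mcm6. Cdc45 was at 1.52, 2.77 and 1.90 with LY against 4.801, 3.251 and 3.39 (-1.75 ± 0.71). Mcm4 was at 1.39, 2.42 and 2.92 against 3.24, 4.01 and 3.58 (-1.37 ± 0.60). Neither overlapped between the arms, and how many of all genes did not overlap was not counted. Mcm6, at 4.26, 6.20 and 2.86 against 5.78, 6.41 and 5.82 (-1.56 ± 0.70), did overlap.

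On all 3 dates at 24 hours, 11 of 22 G1/S genes were lower with LY, where 22.4% of all genes were. They were Mcm4, Mcm5, Mcm6, Pcna, Cdc6, Cdc45, Gins2, Rfc3, Rrm1, Rrm2 and Prim1. Pcna was at 2.14, 4.54 and 3.61 with LY against 5.002, 5.34 and 4.92. Of the G2/M genes, 3 of 23 were lower on all dates, Ccnb2, Top2a and Cenpf, and 3 were higher on all dates, Plk1, Ube2c and the spindle protein gene Hmmr, where 6.33% of all genes were. Plk1 was at 5.55, 5.60 and 5.02 with LY against 5.28, 2.91 and 4.92, and rested mainly on the second date. The G2/M genes with the smallest p were Birc5 (survivin, a passenger protein, -1.56), Top2a (-1.34), Cenpf (-0.81) and Plk1 (1.01). Birc5 was at 4.14 with LY on the first date against 8.83 with DMSO, and differed by 0.0024 without that date. The medians were -0.70 for G1/S and -0.19 for G2/M genes, beside -0.20 for all genes. With genes detected as a covariate they were -0.37 and 0.50 beside 0.04, and with quantile normalization -0.40 and 0.18 beside 0.03, so the G1/S set stayed lower and the G2/M set changed direction.

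Plk1 and Ube2c were lower with LY on all 3 dates at 16 hours and higher on all 3 at 24 hours. Of all genes, 35.7% met the first criterion and 6.33% the second, and the share that met both was not counted. By date Plk1 differed by -0.95, -0.18 and -0.19 at 16 hours and by 0.27, 2.68 and 0.09 at 24 hours. Ube2c differed by -0.68, -0.33 and -0.33, and by 0.87, 0.54 and 0.23. The difference between the 2 effects was 1.45 ± 1.14 for Plk1 and 0.99 ± 0.74 for Ube2c, with a limma adjusted p of 1 for both. The next in that comparison were Birc5 (-1.47), Bub1b (1.11), Cdc45 (-1.47), the GINS subunit Gins2 (-1.73) and Ccne1 (0.84). Birc5 went to 0.098 without the first 24-hour date. Without the first 16-hour DMSO experiment Plk1 was at 0.68, Bub1b at 0.64 and Gins2 at -3.22. Of 23 G2/M genes 19 lay above 0 in that comparison and of 22 G1/S genes 11 did, where 6571 of the 11680 genes did. The medians were 0.42 for G2/M and 0.01 for G1/S genes, beside 0.10 for all genes.

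Single cells of 1 experiment differed in both scores, with an SD within experiments of 0.61 for G1/S and 0.59 for G2/M. Across the 169 cells, after taking off the experiment means, each score correlated with the number of genes detected at r = 0.50. The 2 scores correlated with each other at r = 0.42, and at 0.23 once genes detected was taken off both. Within groups that r was 0.52 at E3.25, 0.40 at E3.75, -0.42 at E4.0, 0.25 in 16h DMSO, 0.07 in 16h LY, 0.57 in 24h DMSO and 0.59 in 24h LY, over 14 to 31 cells each, so the groups differed in sign. The r of the G2/M score with genes detected also ran from -0.17 at E4.0 to 0.85 at E3.25. These r share library and depth and are descriptions.

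**Figure D5:**
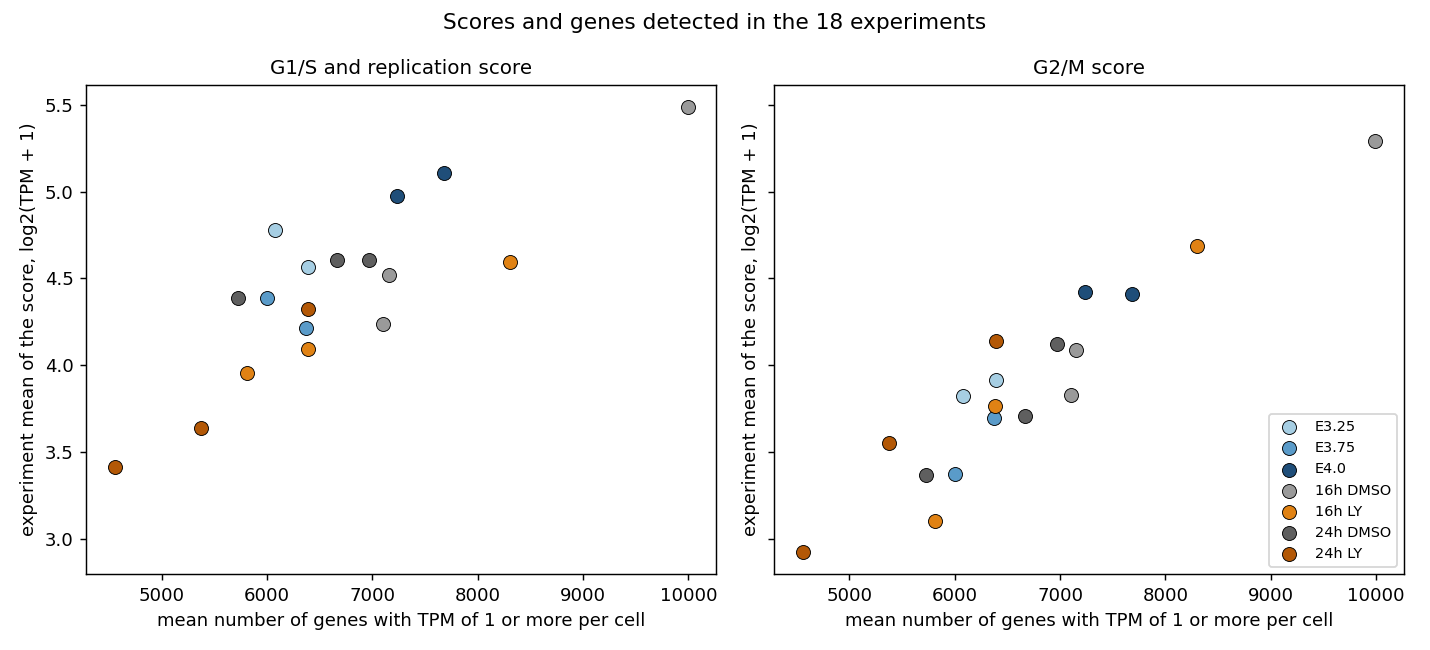
Mean G1/S score (left) and G2/M score (right) of the 18 experiments against the mean count of genes detected per cell, coloured by group. The first 16h DMSO experiment (9995 genes) is highest in both scores and the first 24h LY experiment (4556 genes) is lowest in both.

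Pairs of genes varied together only weakly across cells. The median r was 0.09 within the G1/S genes (231 pairs), 0.09 within the G2/M genes (253 pairs) and 0.06 between the sets (506 pairs). The highest pair joined the sets, Cdt1 with Ube2c (0.48), then Pcna with Cks2 (0.42). Within G2/M it was Cdc20 with Plk1 (0.41), followed by Kif20a with Tpx2 (0.40) and Cdc20 with Ube2c (0.39). Within G1/S it was Cdt1 with Rrm1 and with Fen1 (both 0.40). The lowest were Chaf1b with Cks2 (-0.32), Pcna with Plk1 (-0.32) and Pcna with Ube2c (-0.30). Chaf1b had an r of -0.06 with the score of the other G1/S genes, the lowest of the 22 tested, while Rrm1 had the highest, 0.43. Cdc20 was highest with the other G2/M genes at 0.48. Taking genes detected off left Cdt1 with Ube2c at 0.48.

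Other cell cycle genes were read from 3 lists, and 0 of them passed limma's adjusted p of 0.05 at either time. Of 40 other replication genes, 5 had an unadjusted p under 0.05 at 24 hours, Orc1, Prim2, Pold1, Rfc4 and Tk1, and 17 were lower with LY on all 3 dates. Of all genes, 5.27% and 22.4% were. Tk1, the thymidine kinase, was at 4.03, 7.45 and 5.99 with LY against 7.99, 7.17 and 8.30 (-2.00 ± 0.71, limma adjusted p = 0.899). The median of the 40 was -0.66 at 16 hours and -0.61 at 24 hours, beside -0.33 and -0.20 for all genes. Of 44 tested other mitosis genes, 4 were under 0.05 at 24 hours (Espl1, Ndc80, Spc24 and Cks1b), beside 5.27% of all genes. Cks1b, the paralog of Cks2, was at 4.21, 4.49 and 4.37 with LY and at 7.69, 6.77 and 5.99 with DMSO (-2.46 ± 0.72). Espl1, the separase that cuts cohesin, went the other way (1.49 ± 0.65). The median of these 44 was 0.10 at 24 hours and -0.38 at 16 hours, beside -0.20 and -0.33 for all genes.

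Of the 25 G1 regulators, 14 were tested, and 1 at 16 hours (Tfdp1) and 0 at 24 hours had an unadjusted p under 0.05 in limma, beside 5.49% and 5.27% of all genes. The CDK inhibitor genes Cdkn1a and Cdkn1b were the 2 of the 14 that were higher with LY on all 3 dates at 24 hours, beside 6.33% of all genes. Cdkn1a was at 6.37, 2.59 and 3.40 with LY against 3.67, 2.01 and 1.88 (1.59 ± 0.82, limma adjusted p = 0.899), with overlap. Between fresh stages, Cdkn1b was at 0.39 and 0.24 at E4.0 against 1.02 and 2.699 at E3.75 (-1.54 ± 0.50, limma adjusted p = 0.193). Every E4.0 experiment was below every E3.75 one for 8.27% of all genes. Ccnd3 had the highest levels of the D-type cyclins, at 5.17 to 7.98 over the 18 experiments. Ccnd1 passed the filter on low values but reached at most 1.85. Ccnd2 did not pass it and reached at most 0.17. The licensing inhibitor gene Gmnn followed the pattern of Ccnb1 in DMSO, at 7.89, 7.35 and 6.75 at 16 hours against 3.04, 5.25 and 4.46 at 24 hours (-3.08 ± 0.88, limma adjusted p = 0.307).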

How the data were processed

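Single-cell libraries were made from the 3′ end of polyadenylated RNA, per the labels' protocols. The authors deposited 1 table of TPM values. The aligner STAR 2.7.9a, the quantifier RSEM 1.3.3, the trimmer cutadapt 2.9, bcl2fastq 2.20.0 and the build mm10 are named in the submitters' processing notes. TPM keeps no sequencing depth, so depth is unknown and genes detected stood in for it. Of 186 labelled samples, 170 columns were matched by title; the other 16 were not analysed here. A pair of E3.25 columns that correlated at 0.824 (highest other 0.783) was averaged as 1 cell. A pair of 24h LY columns with 1 cell title between them, in the first experiment, correlated at 0.594 (highest other 0.724) and was kept as 2 of the 24 cells. All cells were kept, and doublets were not called, since each sample is labelled as 1 cell.

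Experiment means of log2(TPM + 1) (18 experiments, 7 groups) were fitted with limma 3.58.1 in R 4.3.3 (eBayes with trend, 11 residual degrees of freedom), which was tested on simulated data. The test covered 11680 genes, those detected (TPM of 1 or more) in 25% or more of any group's cells, and 92 spike-in rows were left out. Experiments combine embryos of more than 1 litter, per the text on the design, so p-values measure the spread between experiments. The 46 genes and the other lists were chosen with earlier results of these data known. Named genes are those past an adjusted p of 0.05 or else the 4 of each set with the smallest p, in each comparison, and the highest and lowest by median TPM. A few others are named from counts of 5 or fewer, from sets that met a criterion, or were chosen after their values were seen. Alternatives changed pseudocount, filter, scaling, run, replicates and the date block.

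The LY and DMSO arms share date labels, which pair them. Across genes, the departures of both arms of a date from their group means correlated at 0.393, 0.121 and 0.317 at 16 hours and at 0.231, 0.12 and 0.0732 at 24 hours.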

Additional observations from a re-analysis of the deposited data

How the results depend on the processing

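Of 145 alternative counts of genes called among the 45, 143 were 0. The count was 1 with cells of the second run only for E4.0 against E3.25 (Nusap1), and 1 with only the groups compared in the fit for 16h DMSO against E3.25 (Ccnb1). With the date as a replicate block, 0 genes were called in all 3 LY comparisons, and the block changed no call at an adjusted p of 0.05. The G1/S score difference for LY at 24 hours was -1.11 with a pseudocount of 0.1 and -0.35 with log2 of the mean TPM. For E4.0 against E3.25 the G1/S and G2/M score differences were 0.61 and 0.86 with that pseudocount, -0.14 and 0.057 with log2 of the mean, 0.50 and 0.68 with TPM rescaled without mitochondrially encoded genes and spike-ins, 0.91 and 0.69 in the first run, and -0.094 and 0.46 in the second. Of 1159 alternative values of the 64 named gene and comparison pairs, 1151 kept their direction and side of the threshold, 2 newly passed and 6 reversed. The 6 were Birc5 for LY at 24 hours (0.0024) and for the difference of LY effects (0.098), both without both arms of the first 24-hour date, Aurkb for E3.75 against E3.25 (0.46) and Rfc3 for E4.0 against E3.25 (-0.55), both in the second run, Kif11 for 24h against 16h DMSO (0.049) with genes detected as a covariate, and Prim1 for 16h DMSO against E3.25 (-0.24) with log2 of the mean. Beyond what these settings change by their construction, the cause was not tested. Leaving out 1 experiment gave score differences from -0.79 to -0.17 (G1/S) and -0.97 to -0.10 (G2/M) for LY at 16 hours, and from -1.004 to -0.55 and -0.49 to 0.11 at 24 hours. Settings without both arms of a first date were chosen after seeing the data. Groups of 2 or 3 experiments and an unknown depth limit what could be detected.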
